A study of Mus musculus with 2 samples.

Results

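This account covers 10 genes of apical cell polarity, apical junctions and Numb function in mouse hindbrain: Cdc42, Pard3, Prkci, Llgl1, Ctnnb1, Afdn, Tjp1, Prom1, Numb and Numbl. They were chosen by name for their known place in neuroepithelium and not by a rule on measured values. Earlier results of these data were known when they were chosen. They are 10 of the 43346 Ensembl genes and 96 of the 129984 transcript entries in the deposited tables. The tissue was hindbrain from B6NCrl embryos at embryonic day 11.5, healthy and of mixed sex, profiled as total RNA longer than 200 nt from 10 ng per library with ERCC spike-ins. The labels place both libraries in 1 group, pool 1 (109 embryos) and pool 2 (88 embryos), so no treated or mutant group exists and no test between groups was possible. Since each pool is 1 library, nothing replicates a difference between them.

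The neuroepithelium of the early hindbrain is a sheet of elongated progenitors whose apical ends meet at the ventricle. There a belt of adherens junctions is built from cadherins, catenins and afadin, and the Par complex (Par3, Par6 and atypical protein kinase C, with the GTPase Cdc42) marks the apical domain, while Lgl proteins act against it on the basolateral side. Numb and Numb-like bind endocytic adaptors, sit near these junctions and restrain Notch signalling, and their loss in mouse disrupts the neuroepithelium. In whole tissue, fewer cells of a type and less RNA per cell cannot be told apart.

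Expected counts are estimated reads per gene. Pool 1 held 45340440 of them and pool 2 held 41261544, and the 10 genes took 112446 and 91014. Levels are TPM, the usual length-adjusted share of a library. The ERCC spike-ins made up 16.2% of the pool 1 TPM and 22.2% of the pool 2 TPM, and the median gene was 1.08-fold higher in pool 1, so ratios between the pools are given relative to that gene. Of the tissue markers, Hoxa2 (49.3 and 48.1 TPM in pools 1 and 2) and Hoxb2 (48.9 and 46.4) were present, and Egr2, a gene of a pair of hindbrain segments, stood at 0.99 and 0.77. Blood, vessel, mesenchyme, choroid plexus and otic markers were present in both pools as well, so the values describe the dissected tissue and not its neuroepithelium alone.

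All 10 genes were detected, that is, they reached 1 TPM in each pool. The same held for 59.4% of protein-coding genes and 33.4% of all annotated genes. Their mean levels spanned 42.8-fold. By deposited TPM, Cdc42 and Ctnnb1 stood far above the rest. Afdn, Prom1 and Llgl1 formed a middle tier, and Prkci, Pard3, Numb, Numbl and Tjp1 followed. With reads over the longest complete coding transcript, Afdn fell to rank 6, and Numbl (rank 8) stood above Numb (rank 9). The values of neighbours in the deposited order overlapped between pools for Cdc42 with Ctnnb1 and for Numbl with Tjp1. Within each library Cdc42 was above Ctnnb1, 1.14-fold in pool 1 and 1.16-fold in pool 2. The ratio of Numbl to Tjp1 turned, at 0.978 in pool 1 and 1.72 in pool 2. Pard3 and Numb were 1.13-fold apart in pool 1 and 1.01-fold in pool 2, and their deposited intervals overlapped in pool 2, so their order is not settled.

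**Figure D1:**
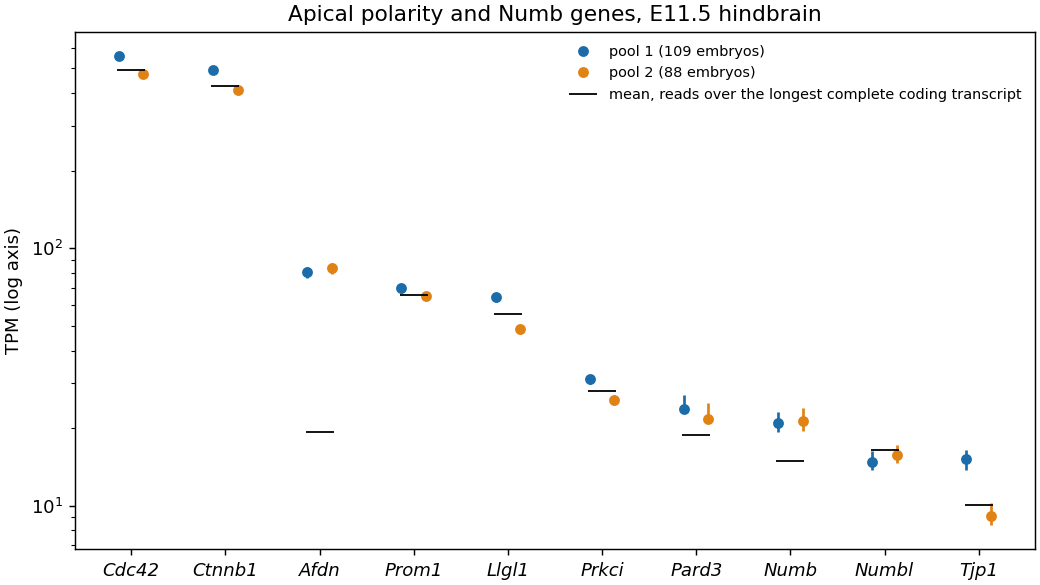
TPM of the 10 genes on a log axis, ordered by mean level; circles are the 2 pools, vertical lines the deposited interval around each TPM, and black dashes the mean level when reads are divided by the longest complete coding transcript. Cdc42 and Ctnnb1 lie above 400 TPM in both pools, and Afdn is the gene whose dash falls furthest below its circles.

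Cdc42, the small GTPase that recruits and activates the Par complex, had 560 TPM in pool 1 and 476 TPM in pool 2, a mean of 518 ± 59.5 (SD, n = 2). That placed it above 98.6% of the 13033 protein-coding genes that averaged 1 TPM or more. The gene lies on chromosome 4 (137319696 to 137357720, minus strand, GRCm38), and its 2 transcripts encode proteins of equal length that differ in the last coding exon. Cdc42-202, which uses the distal and widely used last exon, held 86.8% of the gene's TPM in pool 1 and 86.0% in pool 2. Cdc42-201, whose last exon lies upstream and is known from brain, held 13.2% and 14.0%. The upstream exon was thus carried by 73.8 and 66.7 TPM of transcript, and 2927 and 2542 reads were assigned to Cdc42-201 as a whole.

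The coding parts of the alternative Cdc42 exons are shown because they set the protein forms apart. Each is 87 nt, and 30 of the 87 bases differ. Capitals mark the last 4 codons before the stop, which encode the lipid-modified tail: the widely used form is known to be prenylated, and the brain form is known also to be palmitoylated.
Cdc42-202, chr4:137321106-137321192, minus strand: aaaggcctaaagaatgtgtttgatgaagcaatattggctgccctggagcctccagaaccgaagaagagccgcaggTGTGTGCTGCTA
Cdc42-201, chr4:137322533-137322619, minus strand: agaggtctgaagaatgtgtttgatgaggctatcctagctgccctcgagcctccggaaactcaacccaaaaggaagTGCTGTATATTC

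Pard3, the Par3 scaffold that positions the complex at apical junctions, had 23.7 TPM in pool 1 and 21.6 TPM in pool 2 (22.7 ± 1.48, SD, n = 2; chromosome 8, 127063893 to 127612286, plus strand). It has 28 annotated transcripts, of which 15 received reads. Pard3-209, with a coding sequence of 4002 nt, led with 43.8% and 47.2% of TPM. Pard3-226, which ends early and has a coding sequence of 2223 nt, held 29.9% and 29.1%. Among complete coding transcripts, the early stop at position 127400402 accounted for 39.9% (pool 1) and 35.5% (pool 2), and the far stop at 127610771 for 60.1% and 64.5%. Short and long forms of Par3 that share the amino-terminal part are known in mammals, and models of both kinds received reads here. Reads are divided among whole models, and reads over the alternative ends themselves were not counted.

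Prkci, the atypical protein kinase C iota that forms the enzymatic core of the complex, had 30.9 TPM in pool 1 and 25.7 TPM in pool 2 (28.3 ± 3.71, SD, n = 2; chromosome 3, 30995747 to 31052959, plus strand). It was the simplest of the 10 at the transcript level, with Prkci-201 holding 99.1% and 97.9% of TPM and 4157 and 3279 reads. Of its 5 transcripts only 1 other received any read.

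Llgl1, the mouse homolog of fly lethal giant larvae and a substrate of atypical protein kinase C, had 64.6 TPM in pool 1 and 48.5 TPM in pool 2 (56.6 ± 11.4, SD, n = 2; chromosome 11, 60699723 to 60714186, plus strand). Its leading transcript, Llgl1-202, held 77.1% and 78.8% of TPM. This transcript reads through an intron of 87 nt (60713042 to 60713128) that Llgl1-201 removes, and the last coding base of Llgl1-202 is the first base of that intron (60713042). Llgl1-201, with the intron spliced out, held 21.7% and 19.5%, with 1737 and 1124 reads. The last 79 coding bases of Llgl1-201 are shown in capitals after 12 bases of the preceding exon, because they add residues to the end of the protein. Llgl1-202 holds the same bases in its last exon (60712921 to 60714186), but beyond its last coding base.
Llgl1-201, capitals chr11:60713129-60713207, plus strand: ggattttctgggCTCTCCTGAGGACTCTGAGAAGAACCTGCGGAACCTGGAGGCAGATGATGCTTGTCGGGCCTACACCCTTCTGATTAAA
Flii, on the opposite strand, overlaps the 3′ end of Llgl1 and had 45.1 and 37.8 TPM. The sources used here do not give the strand setting, so reads in the overlap may not be separable.

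Ctnnb1, beta-catenin, links cadherins to alpha-catenin at the junction and carries the Wnt signal to the nucleus. It had 493 TPM in pool 1 and 411 TPM in pool 2 (452 ± 58.0, SD, n = 2; chromosome 9, 120929216 to 120960507, plus strand), with 48328 and 38620 reads, the most of the 10. Ctnnb1-214 led with 62.0% and 67.3% of TPM, and Ctnnb1-201 held 33.6% and 28.9%. Both have the same coding sequence of 2343 nt, so the split concerns untranslated sequence only. The deposited length of Ctnnb1-214 (3422 nt) differs from that in the annotation release used here (2702 nt), so the untranslated part that separates them is not described further.

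Afdn, afadin, ties nectins to the actin belt of the adherens junction. Its deposited level was 80.8 TPM in pool 1 and 83.8 TPM in pool 2 (82.3 ± 2.12, SD, n = 2; chromosome 17, 13760539 to 13906150, plus strand), the third highest of the 10. Most of that level came from short models. Afdn-215 (798 nt) held 38.7% and 45.6% of TPM and Afdn-211 (822 nt) 25.8% and 22.7%, both of them incomplete coding models that cover the first 5 of the 33 exons of Afdn-212. These short models differ from each other by a 3-base shift at the start of 1 internal exon and by 2 bases at the 5′ end and 25 bases at the 3′ end. Together they took 64.5% and 68.3% of the gene's TPM but 24.2% and 28.4% of its reads.

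By reads the leading Afdn transcript was Afdn-212, the full-length coding model of 7732 nt, with 44.5% of reads in pool 1 and 36.7% in pool 2 against 11.0% and 8.16% of TPM. Afdn-203, a noncoding model over the last 3 exons, held 12.6% and 14.3% of TPM. Afdn was the only member of the 10 whose leading transcript differed between reads and TPM. Dividing all Afdn reads by the length of Afdn-212, with the scaling of the library kept, gave 20.0 TPM in pool 1 and 18.6 TPM in pool 2, which moves the gene to the sixth place. The annotated gene Tcte2 (3.48 and 4.48 TPM) overlaps the first exon of Afdn on the opposite strand.

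**Figure D2:**
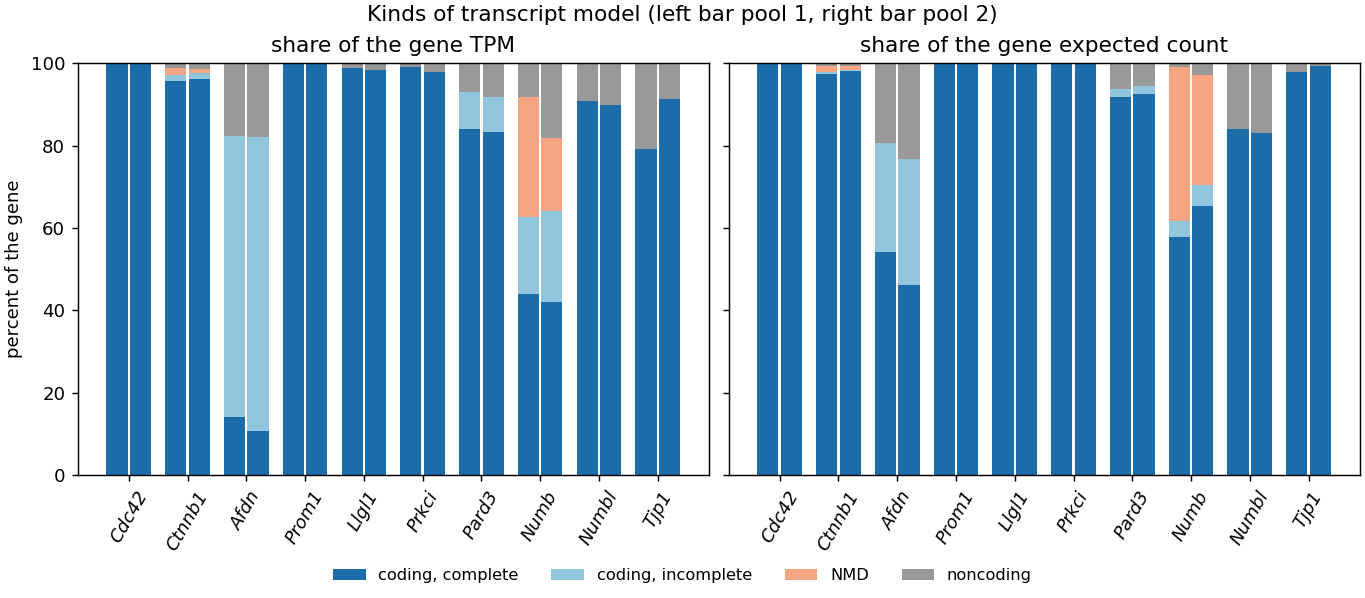
Share of each gene's TPM (left panel) and of its expected count (right panel) by kind of transcript model, left bar pool 1 and right bar pool 2; complete coding models have both ends of the coding sequence, incomplete ones lack an end, and NMD marks models annotated for nonsense-mediated decay. Complete coding models take 14.2% and 10.6% of TPM in Afdn but 54.2% and 46.2% of its reads.

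Tjp1, the tight junction scaffold ZO-1 that sits at adherens junctions in the neuroepithelium, had 15.1 TPM in pool 1 and 9.09 TPM in pool 2 (12.1 ± 4.26, SD, n = 2; chromosome 7, 65296165 to 65527781, minus strand). It was the gene furthest apart between the pools. Tjp1-202 held 68.2% and 74.0% of TPM and Tjp1-201 10.9% and 17.3%. The transcripts differ by an exon of 240 nt, the alpha domain, which Tjp1-202 includes and Tjp1-201 skips, and by 60 nt in which an exon nearer the 3′ end is longer in Tjp1-201. Of the TPM that decides the choice, 86.2% in pool 1 and 81.1% in pool 2 included the 240-nt exon. Forms of ZO-1 with the alpha domain are known from most epithelia and forms without it from endothelium, and endothelial markers were present (Cldn5 at 23.6 and 17.4 TPM, Cdh5 at 11.5 and 11.0). Whether vessels supplied the form without the exon was not tested.

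The exon is shown in capitals between 12 bases of each neighbouring exon, because most Tjp1 RNA carried it. It encodes 80 residues, and 15 of its 80 codons begin with CC, the proline codons.
Tjp1, capitals chr7:65314093-65314332, minus strand: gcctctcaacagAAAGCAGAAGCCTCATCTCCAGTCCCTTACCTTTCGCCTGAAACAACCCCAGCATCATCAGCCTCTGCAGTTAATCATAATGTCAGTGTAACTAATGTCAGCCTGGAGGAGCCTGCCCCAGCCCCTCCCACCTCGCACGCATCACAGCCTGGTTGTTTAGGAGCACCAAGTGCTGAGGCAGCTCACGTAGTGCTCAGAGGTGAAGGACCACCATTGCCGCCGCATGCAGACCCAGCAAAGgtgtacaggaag

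Prom1, prominin-1 or CD133, is a cholesterol-binding membrane glycoprotein of apical protrusions and primary cilia of neuroepithelial cells. It had 70.2 TPM in pool 1 and 65.4 TPM in pool 2 (67.8 ± 3.36, SD, n = 2; chromosome 5, 43993620 to 44102032, minus strand). All of its TPM lay on complete coding models, and it was split almost evenly between 2 of its 8 transcripts. Prom1-202 held 50.6% and 51.5%, and Prom1-207 held 47.4% and 46.7%, with 3805 and 3467 reads on Prom1-202 against 3360 and 2964 on Prom1-207. Their coding sequences, 2601 and 2481 nt, differ by 3 small exons, each a multiple of 3 nt, that Prom1-202 includes and Prom1-207 skips. The exon of 27 nt was included in 52.0% and 52.2% of TPM, and the exons of 24 nt and 69 nt in 50.7% and 51.6%.

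The Prom1 exons are shown in capitals with 12 bases on either side, in the order of the transcript. The deposited length of Prom1-202 (3743 nt) differs from that in the annotation release used here (3966 nt), so these exons are those of the later release.
Prom1 27 nt, capitals chr5:44058626-44058652, minus strand: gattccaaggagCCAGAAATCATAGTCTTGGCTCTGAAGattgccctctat
Prom1 24 nt, capitals chr5:44001270-44001293, minus strand: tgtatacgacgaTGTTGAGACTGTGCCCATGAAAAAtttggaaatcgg
Prom1 69 nt, capitals chr5:44000777-44000845, minus strand: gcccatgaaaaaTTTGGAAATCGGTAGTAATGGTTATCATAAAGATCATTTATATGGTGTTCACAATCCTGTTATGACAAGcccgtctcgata

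Numb, an endocytic adaptor that binds and restrains Notch, had 20.9 TPM in pool 1 and 21.4 TPM in pool 2 (21.1 ± 0.304, SD, n = 2; chromosome 12, 83794034 to 83921934, minus strand). Its paralog Numbl had 14.8 TPM in pool 1 and 15.7 TPM in pool 2 (15.2 ± 0.608, SD, n = 2; chromosome 7, 27258433 to 27282144, plus strand). Numb exceeded Numbl 1.42-fold in pool 1 and 1.36-fold in pool 2, and the deposited intervals of the genes did not overlap in either pool. That order depended on the length and models used. With reads divided by the longest complete coding transcript, Numb had 15.9 and 13.8 TPM against 15.97 and 17.0 TPM for Numbl, ratios of 0.998 in pool 1 and 0.812 in pool 2. Over complete coding transcripts alone Numb had 9.21 and 8.99 TPM and Numbl 13.4 and 14.1 TPM, ratios of 0.686 and 0.639. Which of the pair is higher is therefore not settled by these tables. Numbl was carried mainly by its single coding transcript, Numbl-201, with 90.7% and 89.8% of TPM.

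Numb was divided among more forms. Its known protein forms differ by an insert in the phosphotyrosine-binding domain and an insert in the proline-rich region, and forms with the proline-rich insert have been linked to proliferating cells in studies of other systems. Numb-204, which lacks both inserts, led with 44.0% and 42.1% of TPM, and 934 and 876 reads were assigned to it. The complete coding models with the proline-rich exon of 147 nt, Numb-207 and Numb-210, had 0 reads in both pools. Both are annotated with almost no sequence outside the coding region (1962 and 1929 nt, of which 1959 and 1926 nt code).

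Other models that hold the 147-nt exon did receive reads: Numb-203 (27.0% and 16.4% of TPM, with 554 and 331 reads) and, at a lower level, Numb-202. Both are annotated for nonsense-mediated decay. Numb-203 lacks 55 nt of an upstream exon that has 75 nt in Numb-204, and 55 is not a multiple of 3. Over the transcripts that decide the choice, the exon was included in 40.0% (pool 1) and 29.7% (pool 2) of TPM. The deposited interval of Numb-203 was 4.0 to 6.83 TPM in pool 1 and 2.08 to 4.56 TPM in pool 2, so the intervals of the pools overlapped. Numb-203 also lacks an exon of 85 nt that Numb-204 holds. Reads are divided among whole models, and reads over the 147-nt exon itself were not counted. The share is therefore that of the models that hold the exon and does not say which coding form carried it.

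The exon of 33 nt in the phosphotyrosine-binding domain was included in 22.8% and 26.6% of TPM. This rested mainly on Numb-208, an incomplete coding model of 644 nt with 16.7% and 20.4% of TPM but only 56.0 and 67.1 reads. Numb-205, a retained-intron model of 441 nt, held 8.13% and 18.2% with 17.1 and 37.6 reads. Both exons are shown in capitals with 12 bases on either side. Of the 48 whole codons within the 147-nt exon, 5 are proline codons.
Numb 147 nt, capitals chr12:83797197-83797343, minus strand: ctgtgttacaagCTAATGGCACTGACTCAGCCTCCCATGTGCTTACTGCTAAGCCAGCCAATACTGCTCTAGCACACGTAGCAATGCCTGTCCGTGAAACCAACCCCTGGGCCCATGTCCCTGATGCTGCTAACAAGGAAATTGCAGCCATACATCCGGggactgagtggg
Numb 33 nt, capitals chr12:83825259-83825291, minus strand: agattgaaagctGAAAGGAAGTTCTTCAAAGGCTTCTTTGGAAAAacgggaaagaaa

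**Figure D3:**
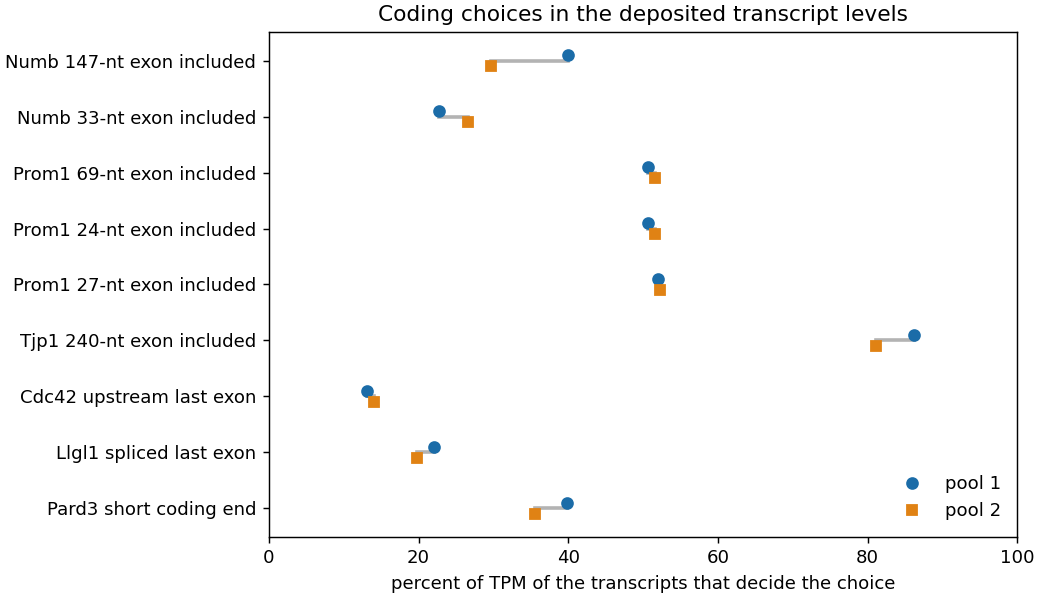
Percent of TPM, over the transcripts that include or skip each element, that carries it in pool 1 (circle) and pool 2 (square); for Cdc42, Llgl1 and Pard3 the value is the share of complete coding TPM with the upstream last exon, the spliced last exon or the early stop. The Prom1 and Cdc42 choices differ by about 1 percentage point or less between the pools, and the Numb 147-nt exon differs most, at 40.0% and 29.7%.

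Of the 10 genes, 7 had a transcript with over 50% of TPM in both pools, and 3 did not (Numb, Pard3 and Afdn). The same transcript led in both pools for all 10. Over 9544 protein-coding genes with several transcripts and an average of 1 TPM or more, 71.9% had such a leading transcript. The median share of the leading transcript was 67.9% over the 10 genes and 70.0% over those genes. Transcripts with at least 10% of TPM in either pool numbered 23, of which 3 stood 10 points or more apart between the pools: Numb-203, Numb-205 and Tjp1-203. Such a difference was found for 25.8% of all transcripts chosen the same way, and for 14% of those in genes with 1000 to 10000 reads.

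Closely related genes were set beside the 10 within each library, because paralogs can share a role. Prom1 stood alone in its family, with Prom2 at 0.30 TPM in pool 1 and 0.60 TPM in pool 2, on 42 and 54 reads. Llgl1 exceeded Llgl2 (4.13 and 2.72 TPM) 15.6-fold in pool 1 and 17.8-fold in pool 2. Ctnnb1 exceeded plakoglobin, Jup (23.1 and 18.3 TPM), 21.4-fold and 22.5-fold. Prkci exceeded its relative Prkcz (14.02 TPM in each pool) 2.21-fold and 1.83-fold, and Pard3 exceeded Pard3b (8.54 and 11.2 TPM) 2.78-fold and 1.93-fold. In each of these 5 pairs the deposited intervals of the genes did not overlap in either pool. With reads over the longest complete coding transcript the directions held and some sizes moved, to 6.42-fold and 4.62-fold for Pard3 and 25.5-fold and 38.6-fold for Llgl1.

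Tjp1 exceeded Tjp3 (1.83 and 1.44 TPM) 8.26-fold in pool 1 and 6.31-fold in pool 2, and the intervals of that pair did not overlap either.

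**Figure D4:**
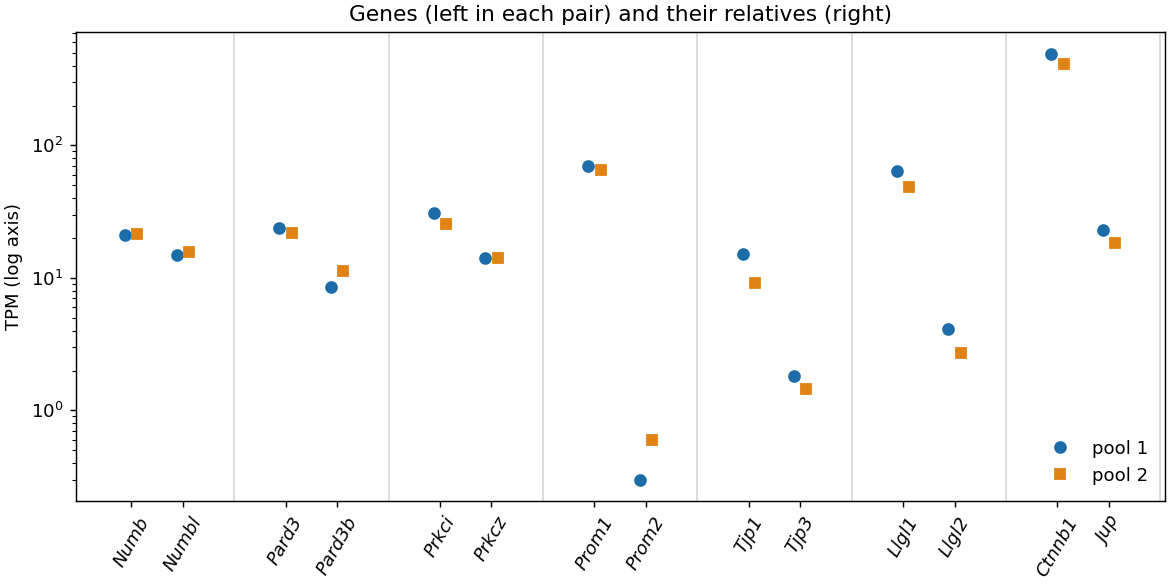
TPM on a log axis for 7 genes (left in each pair) and 1 relative of each (right), pool 1 as circles and pool 2 as squares, families separated by vertical lines. Prom2 lies below 1 TPM in both pools, and each of the 7 genes lies above the relative shown in both, an order that turns for Numb and Numbl over complete coding transcripts (0.686 and 0.639).

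The surrounding pathway was largely present, with 54 of 57 list genes detected, against 59.4% of protein-coding genes. At a threshold of 5 TPM the count was 45, and no share over all genes was taken at that threshold. Of 17 further genes of the Par, Crumbs and Scribble complexes 16 were detected, and their median level was 13.8 TPM. The adaptor Lin7c (121 and 96.2 TPM), the Par6 gene Pard6g (55.6 and 47.6) and the kinase Mark2 (39.0 and 33.8) were highest, and Crb1 (0.86 and 1.21) was lowest. All 16 junction genes were detected, led by N-cadherin, Cdh2 (158 and 129 TPM), and the alpha-catenins Ctnna1 (100.05 and 83.1) and Ctnna2 (50.4 and 35.7). Tjp3 was the lowest.

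Among Numb partners 9 of 10 were detected. The endocytic adaptor subunits Ap2b1 (102 and 82.8 TPM) and Ap2a1 (60.2 and 55.7) and the Notch ligand Dll1 (48.0 and 40.5) were highest on the mean of the pools, although the receptor Notch1 (36.5 and 45.2) was above Dll1 in pool 2. The ubiquitin ligase Lnx1, which targets Numb, was lowest at 0.74 and 0.26 TPM. All 5 beta-catenin partners were detected, with the kinases Csnk1a1 (274 and 256 TPM) and Gsk3b (99.6 and 118) and the scaffold Apc (39.0 and 37.2) highest and Axin1 (9.59 and 6.08) lowest.

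Between the pools, relative to the median gene, 0 of 10 were more than 1.5-fold apart, against 5.89% of the 14833 genes that averaged 1 TPM or more (1.62% higher in pool 1 and 4.26% higher in pool 2). Among genes with 1000 to 10000 reads, where 8 of the 10 lie, the share was 1.55%, so a count of 0 does not set the 10 apart. Their median log2 ratio of pool 1 over pool 2 was 0.07 relative to that gene, and the median size of the ratio was 0.15, against 0.15 over all genes and 0.12 over genes with 1000 to 10000 reads. Before that scaling 7 of the 10 were higher in pool 1, and relative to the median gene 6 were higher and 4 lower. Numb was among the 4, at -0.14, but stood at 0.08 with TMM-scaled expected counts. Prom1 and Pard3 stood nearest to the median gene, with relative log2 ratios of -0.01 and 0.02. The deposited intervals of the pools, not scaled to the median gene, did not overlap for 6 of the 10. The share over the 14833 genes was 40.5%, and none was taken over genes of like read number. Prom1 was among the 6 despite its relative log2 ratio of -0.01. These intervals cover the estimate within 1 library, and for Cdc42 and Ctnnb1 the TPM itself lay above its interval.

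Tjp1 and Llgl1 had the largest ratios. Llgl1 had a relative log2 ratio of 0.30, a 1.23-fold difference towards pool 1, where the SD over genes with 1000 to 10000 reads was 0.21. Tjp1 had 0.57, or 1.48-fold, just under the 1.5-fold line, on 2455 reads in pool 1 and 1598 reads in pool 2. Part of this lay in Tjp1-203, a noncoding model of 699 nt with 3.16 and 0.56 TPM that rested on 55.7 and 9.43 reads. Without noncoding transcripts Tjp1 had 11.96 TPM in pool 1 and 8.29 TPM in pool 2, and its relative log2 ratio was 0.38. Tjp1 passed 1.5-fold with a pseudocount of 0.1 (0.61), without scaling to the median gene (0.68) and when that median was taken without a filter (0.62), and stood at 0.43 with scaled counts.

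Markers of other cells that make tight junctions were read beside Tjp1. All 5 surface and otic epithelium markers were detected and summed to 160 TPM in pool 1 and 102 TPM in pool 2, of which the otic gene Oc90 gave 105 and 47.6. The 5 endothelial markers summed to 79.5 and 70.7 TPM, and the 3 choroid plexus markers to 251 and 182 TPM. In the progenitor list, which summed to 2349 and 2123 TPM, Sox2 (25.2 and 15.4) and Hes5 (202 and 109) were higher in pool 1, while Nes (52.2 and 57.6) was lower. Relative to the median gene, the median log2 ratio was 0.03 over the 5 progenitor markers, -0.12 over the 5 epithelial markers, -0.05 over the 5 endothelial markers and 0.35 over the 3 choroid plexus markers. None of these markers was at 0. Their part in the Tjp1 difference was not tested.

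Of 57 pathway list genes, 1 with a mean of at least 5 TPM was over 1.5-fold apart relative to the median gene. Over all genes averaging 1 TPM or more the share was 5.89%, and among those with 1000 to 10000 reads it was 1.55%. A count of 1 therefore does not set the lists apart. It was Cdc42bpa, a kinase bound by Cdc42, with 9.52 TPM in pool 1 and 14.7 TPM in pool 2, a relative log2 ratio of -0.69. Its paralog Cdc42bpb, with 9.58 and 11.97 TPM, had -0.40.

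**Figure D5:**
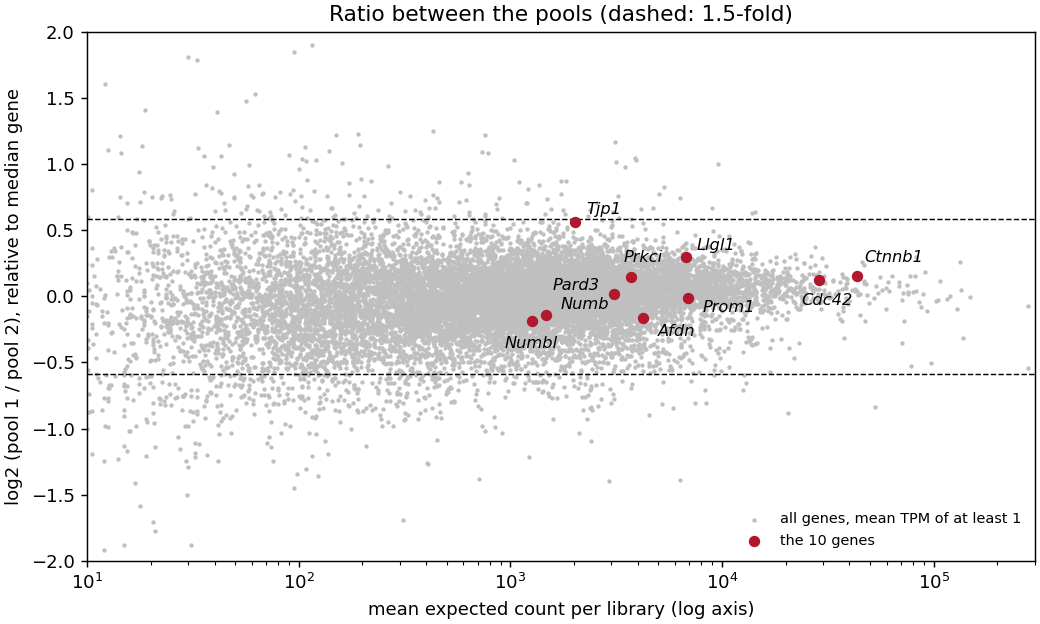
Relative log2 ratio of pool 1 over pool 2 against the mean expected count (log axis) for genes averaging 1 TPM or more (grey) and the 10 genes (red); dashed lines mark 1.5-fold, and points beyond the axes are not drawn. All 10 lie between the lines, with Tjp1 next to the upper one at 0.57.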

How the data were processed

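For each of 2 libraries the authors deposited a gene and a transcript table; per the labels the assembly was mm10, and a readme beside the tables names GENCODE annotation M4. The sources used here name no aligner, quantifier or strand setting. Per the file headers, the authors deposited expected counts (estimated counts that need not be whole), TPM, FPKM and, for transcripts, an isoform percent; bounds of an interval around TPM, of unstated level, were used as deposited scores. Effective length was the length minus 99 nt.

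Symbols, models and GRCm38 coordinates (the build of mm10) came from GENCODE vM21 by identifier without version, matching 42462 of 43346 genes. All 96 transcripts matched, 90 with the same length. Sequences came from the vM21 transcript file. Amino acid sequences were not used.

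Ratios were the log2 of TPM + 1 for pool 1 divided by TPM + 1 for pool 2, minus the median over genes averaging 1 TPM or more. The share of an exon is the TPM of transcripts that hold it over that plus transcripts that span and skip it. The spread is between 2 pools (separate biological replicates per the labels), and no test was made. With 1250 to 48328 reads per gene and pool, counting error is small for the 10 genes and large for transcripts with few reads. Alternatives used other pseudocounts, FPKM, rescaled TPM, posterior means, and edgeR 4.0.16 (TMM) and DESeq2 1.42.0 size factors on expected counts (rounded for DESeq2) in R 4.3.3. The remaining work ran in Python 3.11.15 with pandas 2.3.3, NumPy 2.4.6 and Matplotlib 3.10.9, and the ratio step was tested on simulated data. The genes and lists were chosen with earlier results of these data known. Named were all 10 genes, transcripts with an isoform percent of at least 10 in either pool or 10 points apart, coding exons that differ between such transcripts, and in each list the 3 highest genes, the lowest and any that averaged 5 TPM or more and was over 1.5-fold apart. Paralogs, markers and further exons were named outside this rule. Some relatives, markers and 1 pathway list are not reported here.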

Additional observations from a re-analysis of the deposited data

How the results depend on the processing

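The count of detected genes stayed at 10 at thresholds of 0.5 and 5 TPM, with FPKM and in each pool alone. The count over 1.5-fold apart, 0, was 1 with a pseudocount of 0.1, 1 with no filter for the median gene and 1 without scaling to it, in each case Tjp1. The median level over the 10 genes, 42.4 TPM, was 52.3 without spike-ins, 60.3 over protein-coding nuclear genes and, chosen after seeing the data, 23.6 with reads over the longest coding transcript. The Numb to Numbl ratio of 1.39 was 1.17 on expected counts, which are not length-adjusted, and turned to 0.905 with reads over the longest coding transcript and 0.663 over complete coding transcripts alone, both chosen after seeing the data. The median of the list genes, 16.6 TPM, became 45.6 as a mean and ranged from 16.4 to 17.4 when either pool was left out. Of 194 settings of single genes and transcripts, 63 moved by more than the SD between the pools. Transcript shares on fewer than 100 reads (Numb-205, Numb-208, Tjp1-203) are limited by depth. No paired analysis was possible because both libraries belong to 1 group.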

Other observations

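Further variable exons were named after their values were seen. In Pard3 an exon of 45 nt (127410729 to 127410773) was included in 93.9% of TPM in pool 1 and 94.0% in pool 2, and an exon of 39 nt (127380465 to 127380503) in 98.7% and 98.5%. In Afdn an exon of 45 nt (13825943 to 13825987) was included in 91.8% and 84.0%, and an exon of 36 nt (13890963 to 13890998) in 30.3% and 27.99%. The share of the 36-nt exon rested mainly on Afdn-208, an incomplete coding model of 1210 nt with 2.95 and 2.57 TPM. Models with that exon held 306 and 173 reads, against 2223 and 1765 reads on models without it.

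Numbl held reads on a retained-intron form. Numbl-205, a model of 8 exons and 8511 nt, had 186 and 195 reads, 14.9% and 15.3% of the reads of the gene, but 5.09% and 5.23% of its TPM. An antisense gene at the 5′ end of Prom1, Gm16401, had 2.36 and 2.30 TPM on 137 and 128 reads.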
